A study of Danio rerio with 4 samples.

Results

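The methylomes of zebrafish embryos before and after genome activation were compared, at 2 and at 8 hours post fertilization (hpf), in 1 kb windows of the 25 nuclear chromosomes of assembly Zv9. A window was measured where at least 6 covered CpGs and at least 40 reads were present in both libraries, and its level is the share of methylated reads among all reads over its CpGs (the pooled level). In total, 1097126 of 1354664 windows with a CpG were measured, or 81.0%. Of these, 1095 (0.0998%) were at least 25 percentage points higher at 8 hpf and 1042 (0.0950%) were at least 25 points lower. Pooled levels weigh each CpG by its reads. When only CpGs with at least 3 reads in both libraries were used, every CpG weighing the same, 881 of the windows higher and 840 of the windows lower at 8 hpf could be measured, and 129 and 166 of them still differed by 25 points or more.

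DNA methylation is the addition of a methyl group to cytosine, in vertebrates mostly at CpG dinucleotides, where maintenance methyltransferases copy it after each replication. Most of the zebrafish genome is methylated, while CpG-rich promoters and a part of the enhancers are hypo-methylated. The embryo first divides rapidly with its genome nearly silent, and the zygotic genome is activated at the midblastula transition (MBT), which lies between the 2- and 4-hpf samples.

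The study holds 4 whole-genome bisulfite libraries, 1 each from whole embryos at 2 hpf (cleavage stage), 4 hpf (dome), 8 hpf (epiboly) and 24 hpf. No genotype, strain or treatment is named for any of them, the number of embryos pooled is not given in the sources used here, and whole embryos mix all cell types. Bisulfite turns unmethylated cytosine into uracil, so that a read shows at every CpG it covers whether the cytosine was methylated. Each stage has 1 library, so the spread among embryos cannot be estimated, no test of the stages was possible (a Fisher test of the reads, used as an alternative call, compares 2 libraries), and the Wilson 95% intervals below cover counting error only. Intervals of levels treat neighbouring calls of 1 read as independent and are therefore too narrow. Intervals of shares of windows treat windows of the same libraries, adjoining ones included, as independent. They do not measure how far such shares would vary among embryos or libraries. Where 4 levels of a window follow each other, they are those of the 2-, 4-, 8- and 24-hpf libraries in that order.

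The libraries differ in depth. Mean coverage per nuclear CpG was 28.6 reads at 2 hpf, 20.9 at 4 hpf, 12.3 at 24 hpf and only 8.04 at 8 hpf, and between 11.4% and 14.3% of CpGs had no read in a library. At 8 hpf a typical window that did not differ held a median of 141 reads, against 511 at 2 hpf.

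Between 2 and 8 hpf the great majority of windows stayed within a few points. The median difference was 0.38 points (8 minus 2 hpf), with quartiles of -1.67 and 2.25 points, and 96.3% of windows lay within 10 points. Windows over 75% methylated at both stages numbered 986721, and 30796 windows were under 25% at both. A full switch was rare: 3 windows changed from below 25% to above 75%, and 7 changed from above 75% to below 25%.

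**Figure D1:**
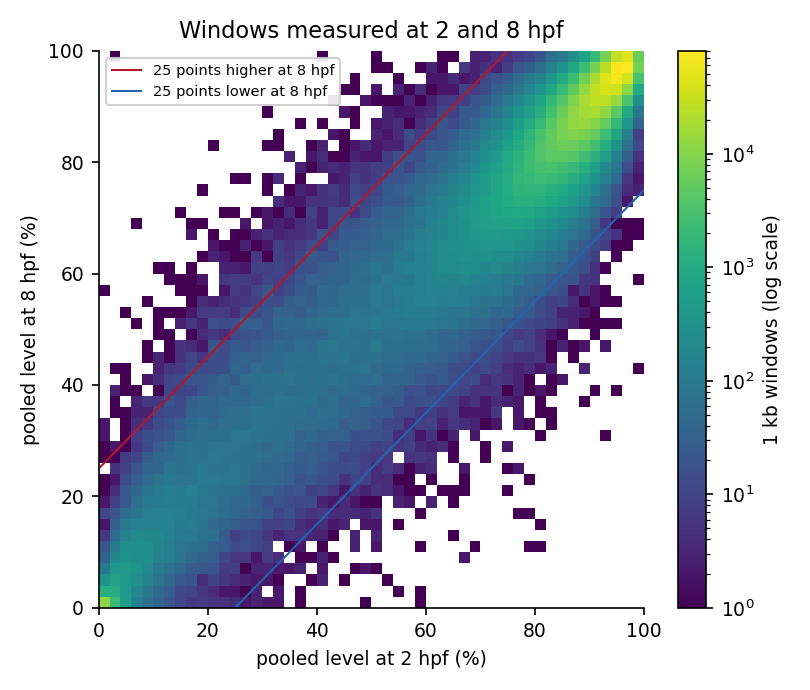
Pooled methylation level of 1 kb windows at 2 hpf (x axis, %) and at 8 hpf (y axis, %), with colour giving the number of windows per square on a log scale and lines at a difference of 25 points. The windows crowd at the upper right and lower left corners, and 1095 windows lie above the upper line and 1042 below the lower one.

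The windows that differed were mostly intermediate in level. The median pooled level of those higher at 8 hpf moved from 34.1% to 66.0% between the 2 libraries, with quartiles of 22.2% and 47.5% at 2 hpf. Those lower at 8 hpf had quartiles of 61.8% and 83.2% at 2 hpf and a median of 43.6% at 8 hpf. These levels chose the windows and are given as a description. Differences were seldom far past the limit, since 57.4% of the windows higher and 58.4% of those lower at 8 hpf differed by under 30 points, and 15 and 23 windows differed by 50 points or more. Just inside the limit, chr19:754001-755000 was 41.1% at 2 hpf and 66.1% at 8 hpf, and chr17:44865001-44866000 was 31.8% and 56.8%. Just outside it, chr10:46012001-46013000 was 22.3% and 47.3%, and chr3:59664001-59665000 was 21.6% and 46.6%. In the other direction chr2:117001-118000 (86.6% and 61.6%) and chr24:38091001-38092000 (lower by the same 25 points) were just inside. There chr5:25215001-25216000 (93.5% and 68.5%) and chr1:42806001-42807000 (82.1% and 57.1%) were just outside. The windows named just inside held only between 46 and 74 reads at 8 hpf, where at least 40 were required. The window chr5:25215001-25216000 was covered at 7 CpGs at 2 hpf and at 30 at 8 hpf.

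Windows that differed were also thinly read. The median number of reads at 8 hpf was 89 in the windows higher and 72 in the windows lower at 8 hpf, and 18.3% and 19.6% of their CpGs had no read there, against 6.45% in windows that did not differ. At 2 hpf, 18.2% and 17.2% of their CpGs had no read, against 5.97%. The pooled levels at the 2 stages therefore rest in part on different CpGs and on different numbers of reads per CpG.

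To separate a change of level from a change of coverage, each CpG with at least 3 reads in both libraries was compared with itself, every CpG weighing the same, in windows with at least 6 such CpGs. Of the windows higher at 8 hpf, 881 could be measured this way, and their median difference was 4.25 points, with quartiles of 0.53 and 17.76. Of these, 14.6% were at least 25 points higher CpG by CpG, 53.5% were under 5 points higher or not higher, and 20.5% went the opposite way. The windows lower at 8 hpf kept more of their difference. Over 840 of them the median was -10.31 points, 19.8% were at least 25 points lower and 13.2% went the opposite way. The background of this measure is small, as 284 of 1067721 windows (0.0266%) were at least 25 points higher at 8 hpf CpG by CpG and 372 (0.0348%) at least 25 points lower. Of those, 155 and 206 windows did not pass the limit on pooled reads. The CpG by CpG measure changes both the weights and the CpGs used. With equal weights alone, over all covered CpGs, 24.4% of the windows higher and 23.5% of the windows lower still differed by 25 points or more. With the CpGs matched alone and weighted by their reads, 54.5% and 72.6% of the measurable windows did. Over all windows, equal weights alone gave other windows past the limit, 1255 higher and 1195 lower in all.

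**Figure D2:**
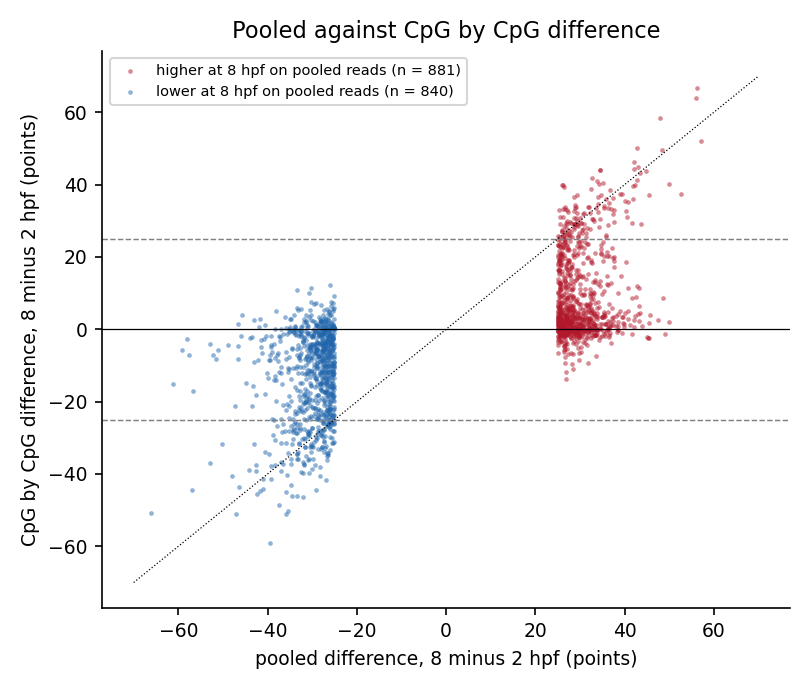
Each point is a window that differed by 25 points or more on pooled reads, with its pooled difference on the x axis and its CpG by CpG difference on the y axis (8 minus 2 hpf, in points). The dotted line marks equal values, the dashed lines 25 points, and 881 windows higher and 840 lower at 8 hpf are drawn, most of them between the dashed lines.

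Over the CpGs read in both libraries, the pooled difference splits into a part from the CpGs' own levels and a part from the share of reads that each CpG takes, while CpGs read in only 1 of the libraries enter neither part. In the windows higher at 8 hpf the median level part was 5.04 points and the median coverage part 20.57 points, and the coverage part was the larger in 64.4% of them. In the windows lower at 8 hpf the medians were -10.71 and -16.09 points, and the coverage part was the larger in 55.4%. In windows that did not differ, the medians were 0.44 and -0.08 points.

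Many windows that differed held both hypo-methylated and highly methylated CpGs, whose order along the window was not used. At least 3 CpGs under 25% and at least 3 CpGs over 75% at 4 hpf, with 5 or more reads each, were found in 42.1% of the windows higher and 23.0% of the windows lower at 8 hpf, against 3.62% of windows that did not differ. In such mixed windows higher at 8 hpf, the low CpGs had a median of 0.936 times the coverage of the high CpGs at 2 hpf. The ratio was 1.12 at 4 hpf and 0.222 at 8 hpf. In mixed windows lower at 8 hpf the order was turned, the ratio being 0.548 at 2 hpf and 2.20 at 8 hpf. The pooled level of a mixed window depends on this ratio. Choosing windows by their pooled difference therefore favours such shifts, and the ratios are given as a description. In mixed windows that did not differ the ratio was 0.767, 0.823 and 0.749 at 2, 4 and 8 hpf. Over all CpGs of the genome it was 0.730, 0.858, 0.673 and 0.576 in the 4 libraries in order of stage, so coverage of hypo-methylated CpGs differed between libraries. Why it differed was not tested.

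The windows with the largest pooled differences show both cases. Among those with at least 10 covered CpGs and 100 reads at every stage, chr15:29740001-29741000 had pooled levels of 27.0% (21.9% to 32.9%, 248 reads), 16.5% (405 reads), 76.1% (67.6% to 82.9%, 117 reads) and 59.7% (119 reads). Over its 12 CpGs with 3 reads in both, the difference was -1.36 points. The window chr20:54392001-54393000 had 13.1% (11.3% to 15.3%, 1097 reads), 9.64% (1214 reads), 58.7% (54.5% to 62.7%, 554 reads) and 57.1% (671 reads). It holds a methylated edge and an unmethylated stretch, and its 24 CpGs differed by 1.87 points. The windows chr7:66982001-66983000 (14.0% and 61.4% at 2 and 8 hpf) and chr22:10738001-10739000 (32.2% and 76.1%) were alike, with CpG by CpG differences of 2.62 and 1.02 points. Only 1 of the 5 held, chr25:15041001-15042000, with 20.8% (18.4% to 23.3%, 1049 reads), 25.7% (21.5% to 30.4%, 370 reads), 65.5% (60.1% to 70.5%, 313 reads) and 26.2% (22.3% to 30.5%, 443 reads). Its 24 CpGs were 43.83 points higher at 8 hpf, and only the 8-hpf library stood apart.

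None of the 5 windows with the largest differences in the other direction reached 25 points CpG by CpG. The window chr10:46586001-46587000 had 67.6%, 69.4%, 9.64% and 13.3%, on 720 reads at 2 hpf and 1245 reads at 8 hpf. Its 13 CpGs differed by -2.74 points, while its coverage per CpG was 0.785 times the median window at 2 hpf and 6.67 times at 8 hpf. The window chr2:37756001-37757000 was 67.3% and 9.61%, its coverage 1.62 and 17.3 times the median, and its 22 CpGs differed by -7.02 points. In both, the coverage part of the difference was the larger, -44.79 and -48.35 points, the reads at 8 hpf lying mostly on the less methylated CpGs. The windows chr24:43873001-43874000 (79.8% and 23.1%), chr15:43255001-43256000 (77.0% and 24.0%) and chr16:52540001-52541000 (64.7% and 12.5%) differed CpG by CpG by -17.17, -4.14 and -7.24 points. These values rest on 7 of 48, 7 of 15 and 10 of 40 CpGs, and the equal-weight mean over all covered CpGs of the chromosome 16 window differed by -42.74 points.

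**Figure D3:**
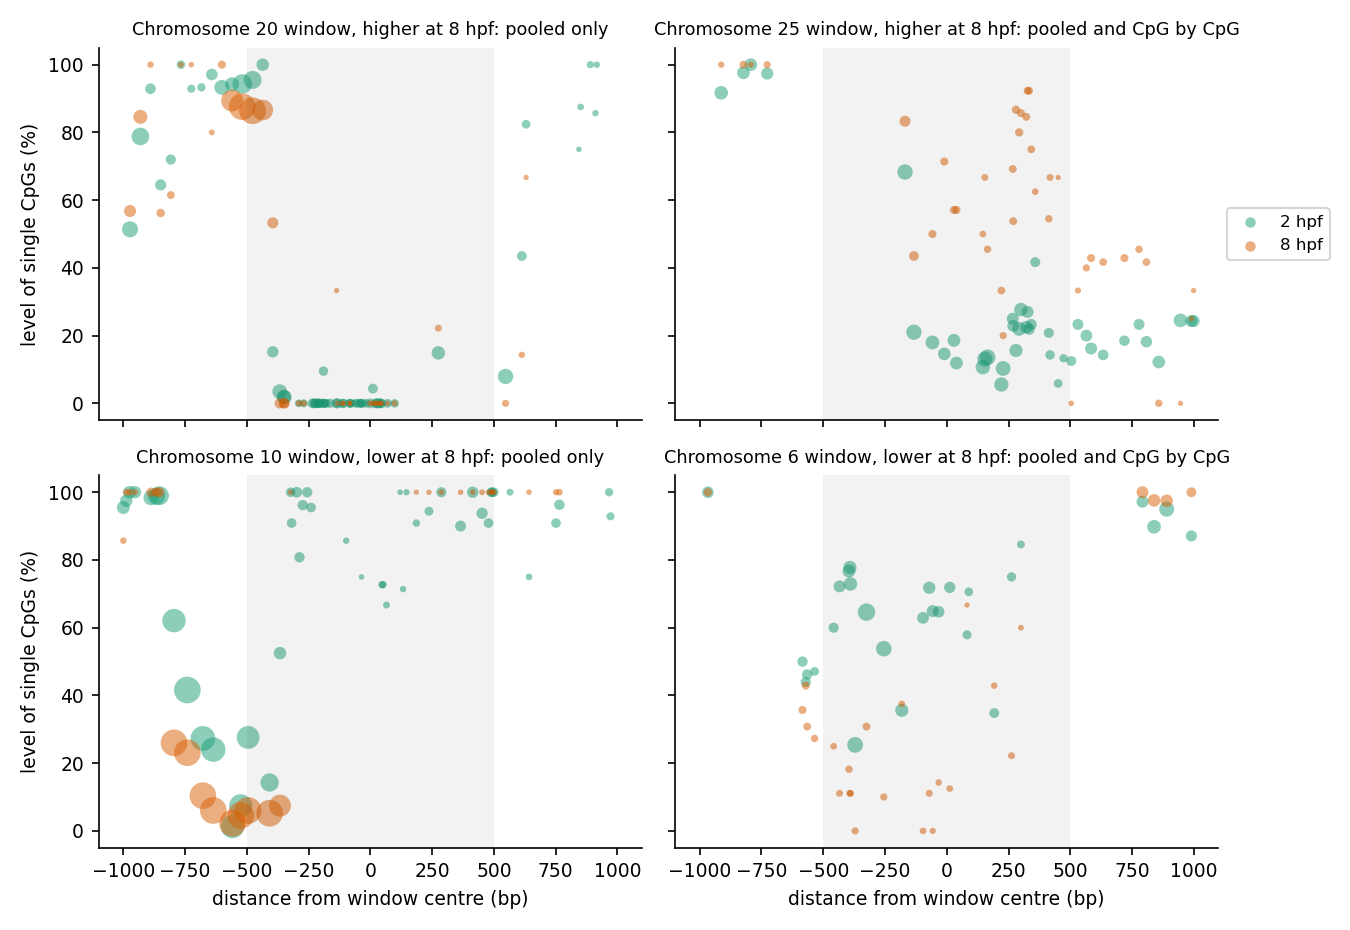
Levels of single CpGs with at least 3 reads at 2 and 8 hpf (y axis, %) by distance from the centre of 4 windows (x axis, bp; the window is shaded), with point area growing with the reads up to 200. In the chromosome 20 and chromosome 10 windows the 8-hpf reads crowd at 1 edge and CpGs differed by 1.87 and -2.74 points on average, while the CpGs of the chromosome 25 and chromosome 6 windows differed by 43.83 and -41.28 points.

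On both measures, 129 windows were higher and 166 were lower at 8 hpf (0.0121% and 0.0155% of the 1067721 windows measured CpG by CpG). Their matched CpGs differed by 25 points or more, as did their pooled reads. With all covered CpGs weighing the same, 103 of the windows higher and 125 of the windows lower also passed the limit. In the 129 and 166 windows the level part of the difference had a median of 29.13 and -29.17 points and the coverage part 1.78 and -0.90 points. Mixed windows made up 9.30% and 6.63% of them. Choosing windows by the difference of their matched CpGs favours a large level part, a small coverage part and few mixed windows. These values are therefore given as a description. They remained thinly covered, with a median coverage per CpG of 0.503 and 0.519 times that of all windows at 2 hpf and 0.649 and 0.520 times at 8 hpf, and 15.5% and 21.9% of their CpGs had no read at 8 hpf. What part low coverage has in their difference was not tested.

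These windows lay apart from each other and on every chromosome. The 129 windows higher at 8 hpf formed 122 runs of adjoining windows and the 166 lower ones 163, over 25 chromosomes each. Chromosome 4 held the most windows higher, 13 or 0.0331% of its measured windows, of which 7 form 1 run described below. Chromosome 22 followed with 10 (0.0304%). Chromosomes 2 and 9 held the most windows lower, 14 each (0.0284% and 0.0292%). Chromosome 23, with 11 windows lower, had a near share of 0.0279%. The windows 1 kb away from any window that differed on pooled reads were also followed, without those past the limit in that direction. Their median difference was 0.71 points around windows higher and -0.21 points around windows lower at 8 hpf. Because neighbours past the limit were left out, these medians do not show how far the differences reached.

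Their share varied with CpG density, with depth and with the level at 4 hpf, a library that did not choose them. Windows higher on both measures made up 0.00586% of windows with 10 to 19 CpGs, 0.0417% of those with 40 to 59 and 0.0647% of those with 60 or more. Of the 7 windows in the last class 6 belong to 1 run on chromosome 4, and without that run the share was 0.00924%, below that of windows with 40 to 59. Windows lower on both made up 0.00820%, 0.0396% and 0.00924%. The last share, and that of windows higher without the run, rest on 1 window each. By depth at 8 hpf, windows higher made up 0.0294% and windows lower 0.0602% of windows with 40 to 59 reads, against 0.00720% and 0.00493% of those with 200 reads or more and under 400, so the thinnest windows were the richest in differences. By level at 4 hpf, windows higher made up 0.354% and windows lower 0.346% of the windows between 25% and 50%, against 0 of 700945 windows and 0.000285% at 90% or more, where 0 windows allows a share of up to 0.000428%. Windows under 25% at 4 hpf had 33 windows higher and 14 lower on both measures among 36309, and windows more than 20 kb from any such window had 49 and 76 among 586014. Long hypo-methylated valleys, here 526 runs of 5 or more adjoining windows under 25% at 4 hpf, held 7 windows higher among 4588, all of them in the run on chromosome 4, and 0 lower, which allows up to 0.0654%. Most windows stayed within a few points between stages. A window at 90% or more therefore had little room to be higher, and a valley window little room to be lower. The counts of 0 are in part set by this scale.

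At 4 hpf these windows were still near their 2-hpf level. Over the CpGs with 3 reads at 2, 4 and 8 hpf, the windows higher at 8 hpf had median levels of 40.9%, 45.2% and 76.3% (n = 127 windows). Those lower at 8 hpf had 64.6%, 58.4% and 30.1% (n = 157). The 4-hpf level was nearer to 2 than to 8 hpf in 87.4% (80.5% to 92.1%) and 75.8% (68.5% to 81.8%) of them. The 8-hpf library is the shallowest of the 3 and its counting errors helped to choose the windows, and the part of this in the result was not tested. With at least 100 reads at 8 hpf, the median step from 2 to 4 hpf was 2.75 points (65 windows higher) and -2.91 points (54 windows lower).

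At 24 hpf the directions differed in what was left of the difference, although no test between them was made. The windows higher at 8 hpf had a median of 61.9% at 24 hpf, 16.00 points above 2 hpf (n = 113), and 64.6% (55.4% to 72.8%) of them were still at least 10 points above 2 hpf, as were 0.796% of all windows. The windows lower at 8 hpf were back at a median of 62.8% at 24 hpf, -2.67 points from 2 hpf (n = 145), and 32.4% (25.3% to 40.4%) were still at least 10 points below it, as were 5.13% of all windows. A difference of 25 points or more was left in 30.1% and 14.5%, against 0.113% of all windows that were as much higher and 0.169% that were as much lower at 24 hpf. At 24 hpf 46.9% of the windows lower at 8 hpf were at or above their 2-hpf level. With at least 100 reads at 8 hpf the medians were 12.88 points (64 windows) and 0.99 points (54 windows). Over all 1052011 windows measured this way the median of 24 minus 2 hpf was -2.54 points. On pooled reads, 25 points or more were kept at 24 hpf in 23.6% of the windows higher and 19.3% of the windows lower at 8 hpf, beside 0.216% and 0.234% of all windows. In windows with at least 100 reads the order turned, with 23.6% and 30.5%. The 2-hpf library helped to choose the windows and is also the base of these differences, and the part of this was not tested. Most of all windows were highly methylated, with less room to be higher, so the shares of all windows are not matched for level.

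**Figure D4:**
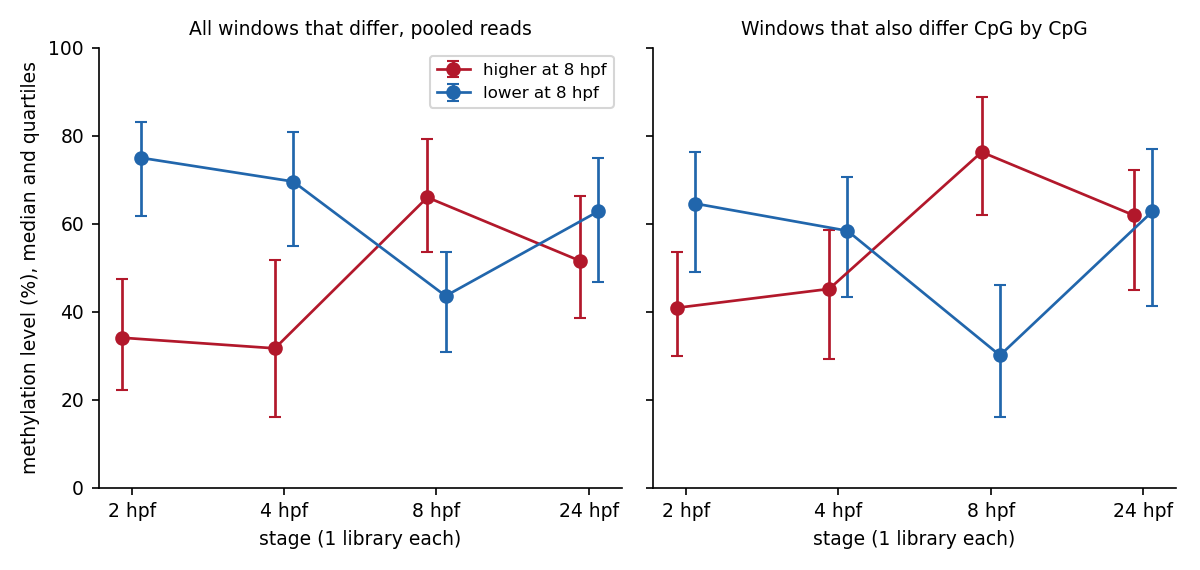
Median methylation level (points) with quartiles (bars) at the 4 stages, 1 library each, for all windows that differed on pooled reads (left) and for those that also differed CpG by CpG (right, means over CpGs; the 24-hpf points rest on the 113 and 145 windows measured there). On the right, 4 hpf lay near 2 hpf, and at 24 hpf both groups had medians of 61.9% and 62.8%.

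The 5 windows each way with the largest CpG by CpG difference, with 10 matched CpGs and 100 reads at every stage, were chosen after their values were seen. Of those higher at 8 hpf, chr19:31229001-31230000 had means over its CpGs of 37.8%, 35.2%, 82.1% and 67.6% at 2, 4, 8 and 24 hpf, and its level at 8 hpf was kept in large part at 24 hpf. The window chr22:16586001-16587000 had 45.6%, 49.8%, 84.5% and 48.7% over 36 CpGs and was high at 8 hpf only, like the chromosome 25 window above. The window chr4:53968001-53969000 had 51.8%, 56.7%, 91.8% and 73.3% over only 14 of its 45 CpGs. Its coverage at 2 hpf was 0.199 times the median window, and its pooled difference was 25.92 points, from 66.5% at 2 hpf. The window chr2:7306001-7307000 differed from the rest in that 4 hpf was already high, with 43.8%, 90.8%, 85.0% and 65.7%. These means rest on 10 of its 28 CpGs, and its pooled level at 24 hpf was 79.4%.

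Of those lower at 8 hpf, chr9:30066001-30067000 had 51.5%, 43.4%, 14.0% and 87.6% over 23 CpGs, so that 24 hpf was far above 2 hpf. The window chr6:32381001-32382000 had 62.6%, 43.3%, 21.4% and 67.3% and was intermediate at 4 hpf. The windows chr13:41330001-41331000 (53.1%, 57.9%, 17.2% and 46.2%) and chr3:60301001-60302000 (70.8%, 59.3%, 31.7% and 58.4%) were low at 8 hpf and near their earlier levels at 24 hpf. Their means rest on 11 of 24 and 10 of 22 CpGs. Only chr23:46138001-46139000 was also low at 24 hpf, with 67.5%, 62.2%, 29.9% and 36.8%. At 8 hpf these 5 windows held between 105 and 490 reads.

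The longest run of windows that differed was on chromosome 4, from 61293001 to 61300000, where 7 adjoining windows with 663 CpGs were higher at 8 hpf, while no other run in either direction exceeded 2 windows. At 2 hpf the 7 windows lay between 1.5% and 3.48%, and at 4 hpf between 4.67% and 15.5%. They lay between 31.7% and 42.5% at 8 hpf, and the 24-hpf library gave 59.7% to 72.4%. No 2 stages overlapped, and every window was higher at each later stage. CpG by CpG the windows were 26.62 to 37.44 points higher at 8 than at 2 hpf. The windows adjoining the run on both sides had too few reads to be measured, and beyond them the window chr4:61305001-61306000 followed the same order, with 2.76%, 9.70%, 25.3% and 67.8%. The 14 measured windows on both sides were between 91.7% and 97.2% at 2 hpf and between 93.7% and 98.6% at 8 hpf. Coverage per CpG of the run was 9.05 times the median window at 2 hpf and 3.66 times at 8 hpf, and 10.9 times at 24 hpf. Coverage far above the median is found where copies of a sequence are joined in the assembly, and whether the levels of several copies are mixed here was not tested. Without this run, 122 windows higher at 8 hpf held on both measures.

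**Figure D5:**
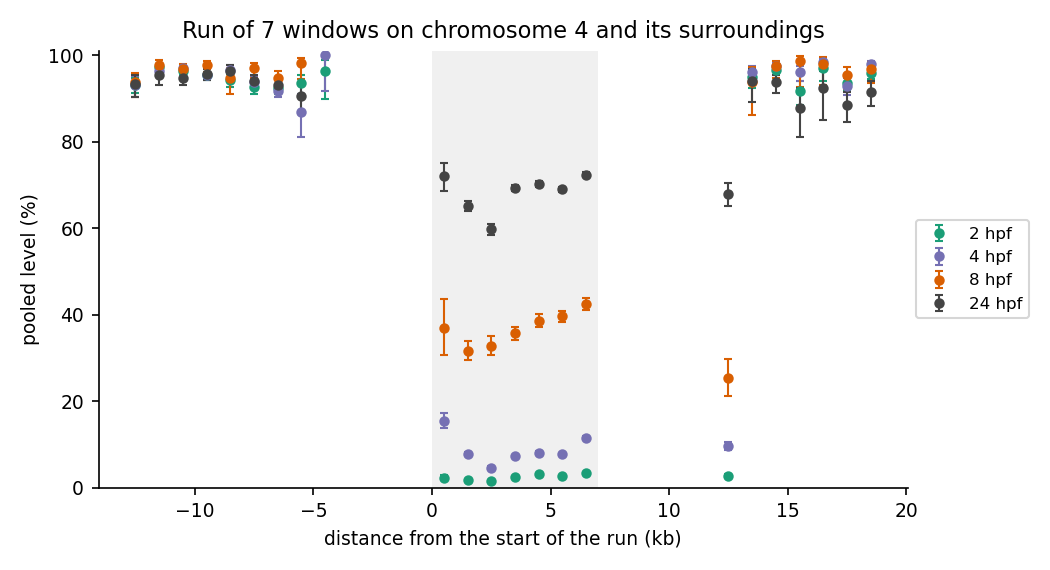
Pooled level (y axis, %) of 1 kb windows by distance from the start of the run on chromosome 4 (x axis, kb; the run is shaded), for the 4 libraries, with Wilson 95% intervals; windows under 40 reads are not drawn. The 7 windows are ordered by stage, from at most 3.48% at 2 hpf to at least 59.7% at 24 hpf, between 14 flanking windows at or above 86.9%, and 1 further window 12 kb from the start follows the run.

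Of the many runs of 2 windows, only those with the largest mean pooled differences each way are named here. All of these named runs were below 25 points CpG by CpG, which does not hold for every run of 2 windows. The runs chr20:54686001-54688000 and chr11:31478001-31480000 were 44.57 and 36.01 points higher at 8 hpf on pooled reads and 12.47 and 12.36 points CpG by CpG. The runs chr10:46585001-46587000, chr2:37755001-37757000 and chr17:17154001-17156000 differed by -51.41, -47.41 and -46.06 points on pooled reads and by -3.81, -8.04 and 0.42 points CpG by CpG. The last value rests on 8 of 41 CpGs, and the equal-weight mean over all covered CpGs of that run differed by -39.76 points.

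For 1078 windows higher at 8 hpf and 1022 lower, 4 hpf was measured as well. On pooled reads 4 hpf lay outside the range of 2 and 8 hpf in 56.4% (53.4% to 59.3%) of the windows higher at 8 hpf, in 54.6% below it, by a median of 8.23 points where below. Of the windows lower at 8 hpf, 38.0% (35.0% to 41.0%) had 4 hpf outside, 34.1% above, by a median of 4.82 points where above. Over all windows measured at the 3 stages, 4 hpf lay outside the range in 68.2%, where the range is mostly narrow. Departures of 10 points or more below the range were found in 21.3% of the windows higher at 8 hpf and in 1.25% of all windows. CpG by CpG they were fewer, in 6.67% of the windows higher at 8 hpf (n = 855) and in 0.521% of all windows, and 10 points or more above the range they were found in 5.51% of the windows lower (n = 816) and 0.204% of all windows. The shares of all windows are not matched for level or depth. In mixed windows higher at 8 hpf the coverage of low over high CpGs was 1.12 at 4 hpf, against 0.936 at 2 and 0.222 at 8 hpf. What part this has in the pooled departures was not tested. Among the windows that differed on both measures, 4 hpf was inside the range in 61.4% (52.7% to 69.4%) of those higher and 65.6% (57.9% to 72.6%) of those lower at 8 hpf.

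Across all windows with 6 CpGs of 3 reads at 2, 4 and 8 hpf, 125 were at least 25 points higher and 319 at least 25 points lower at 4 than at 2 hpf CpG by CpG (0.0118% and 0.0300%). From 4 to 8 hpf, 895 were at least 25 points higher and 577 lower (0.0843% and 0.0543%). Both pairs share the 4-hpf library, and the second pair holds the shallower 8-hpf library, so these counts are given side by side only.

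Among windows with at least 100 reads at 2, 4 and 8 hpf, the window in which 4 hpf lay farthest below the range was chr11:33565001-33566000, with 47.7% (45.0% to 50.4%, 1312 reads), 10.7% (9.24% to 12.3%, 1594 reads), 76.9% (72.0% to 81.2%, 321 reads) and 51.4%. The same order was found CpG by CpG, with 48.4%, 13.4%, 77.5% and 58.6%, so this window was hypo-methylated at the dome stage alone. The window chr9:15732001-15733000 was 53.7%, 24.6% and 84.0% at 2, 4 and 8 hpf on pooled reads, but 41.0%, 34.3% and 70.3% over 8 CpGs. The window chr8:42531001-42532000 (65.0%, 34.7% and 92.6%) had only 4 CpGs with 3 reads in both libraries and could not be measured CpG by CpG. Farthest above the range among them was chr5:7352001-7353000, with 48.0%, 75.4%, 22.1% and 66.7%. Its CpGs gave 50.5%, 77.4%, 27.2% and 64.5%, so that 8 hpf was the lowest of the 4. The windows chr23:36798001-36799000 (49.4%, 70.1% and 24.3%) and chr20:2064001-2065000 (49.5%, 69.6% and 22.4%) differed between 2 and 8 hpf by -8.96 and -0.29 points CpG by CpG.

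The 6 bait loci of the 4C primer table that accompanies the study, more than the viewpoints its text describes, were followed with their positions taken as Zv9. All 6 genes encode transcription factors, and each window is named by the gene of its bait. The paper describes its viewpoints as hypo-enhancers, a class of enhancers that it defined by low DNA methylation in early embryos. A low level was thus part of how such loci were chosen, and it is no separate finding about these genes. All 6 windows were hypo-methylated before and after genome activation. The window of nfixb (nuclear factor I family, chr3:14457001-14458000) was 2.67% at 2 hpf and 0% of 144 reads at 8 hpf, which allows up to 2.08%. The window of the SRY-box gene sox5 (chr4:16032001-16033000) was 2.58%, 1.01%, 6.54% and 16.5%, and that of the LIM-homeobox gene lmx1ba (chr5:5140001-5141000) was 5.05%, 2.44%, 4.57% and 18.1%. These 2 were the highest of the 6 at 24 hpf. The windows of the homeobox genes meis1b (chr13:5150001-5151000), barx1 (chr11:28516001-28517000) and meis2a (chr17:53464001-53465000) were 2.85%, 1.06% and 3.97% at 2 hpf and 0.763%, 0% (of 193 reads, which allows up to 1.55%) and 3.82% at 8 hpf. No bait window differed between 2 and 8 hpf by more than 3.96 points.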

How the data were processed

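Zebrafish embryo DNA was bisulfite sequenced by the authors, who mapped the reads to Zv9 (danRer7). Neither the aligner nor the treatment of duplicates is named in the sources used here. For each CpG the authors deposited the methylated fraction and the coverage over both strands; fraction times coverage gave whole reads within 0.00124. Windows, levels, the CpG by CpG difference, its split and the intervals were computed with numpy 2.4.6 and pandas 2.3.3 in Python 3.11.15. Fisher tests were computed with numba 0.67.0 and checked against scipy 1.17.1, and the steps were checked on simulated data.

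The windows, lists and alternatives were chosen with earlier results of these data known. Named windows are the 5 largest differences each way (at most 1 per 10 kb), the 3 longest runs, the 2 just inside and just outside the limit, the 3 with 4 hpf farthest outside the range, and the 6 baits. The CpG by CpG measures were added after seeing the data. No Zv9 annotation or sequence was used here, so windows are named by position and no promoter, enhancer or gene other than the baits could be placed.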

Additional observations from a re-analysis of the deposited data

Results flagged for a closer look

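Mitochondrial CpGs, 402 in number, were used in no comparison. Of the reads over them 0.853% were called methylated in the 2-hpf library, and 0.700%, 0.436% and 0.439% in the libraries of the later stages in order. Whether these calls reflect methylated cytosines was not tested.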

How the results depend on the processing

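Of the 10 alternatives set beside the 6 main results, leaving out windows over 3 times the median coverage, shifting the windows by 500 bp, requiring an adjusted Fisher p under 0.05 (which compares 2 libraries) and leaving out chromosome 4 moved none beyond 1.5 times (counts) or the main interval (shares). All of these but the shift only remove windows, and few of them. They left 1088 (coverage), 1045 (Fisher) and 1036 (chromosome 4) windows higher, and 1022, 982 and 997 lower. Their results could therefore hardly move, and they say little about stability. As means of fractions there were 1255 windows higher and 1195 lower, of which 267 and 245 were also past the limit on pooled reads. Windows higher at 8 hpf numbered 456 with at least 100 reads, 318 over CpGs with 5 reads at both stages, 284 CpG by CpG, 129 on both measures and 544 whichever single CpG was left out. Windows lower numbered 1643 with at least 20 reads, 318 with 100 reads, 681 with 10 covered CpGs, 417 over CpGs with 5 reads, 372 CpG by CpG, 166 on both measures and 440 whichever single CpG was left out. The last 3 of each were chosen after seeing the data.

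The share with 4 hpf outside the range among windows higher was 53.0% (20 reads), 61.5% (100 reads), 60% (10 CpGs), 29.6% (mean of fractions), 43.0% (CpGs with 5 reads), 52.0% (thinned to 8 hpf), 35.3% (CpG by CpG) and 38.6% (both measures). Among windows lower it was 33.5% (100 reads), 31.4% (mean of fractions), 34.0% (CpGs with 5 reads), 31.8% (thinned), 34.6% (CpG by CpG) and 34.4% (both). A difference of 25 points kept at 24 hpf was found in 23.6% of windows higher, and in 26.7% (mean of fractions), 26.5% (thinned) and 30.1% (both measures); in 19.3% of windows lower, and in 30.5% (100 reads), 16.9% (mean of fractions), 10.8% (CpG by CpG) and 14.5% (both).

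Of 310 differences of named windows under alternatives, 298 kept their direction. Other limits on reads or covered CpGs, and leaving out high coverage or chromosome 4, only select windows. They repeat the main value of each window kept, so no direction could change there. The changes of sign arose as means of fractions, over CpGs with 5 reads and CpG by CpG. Among windows past the limit, reversed were chr15:29740001-29741000 (-3.19 as a mean of fractions, -1.36 CpG by CpG), chr10:46586001-46587000 (2.16 as a mean of fractions), chr22:10738001-10739000 (-1.54 over CpGs with 5 reads), and, CpG by CpG, chr2:117001-118000 (0.07) and chr17:17154001-17156000 (0.42). Of the windows just outside it, chr10:46012001-46013000 (-1.29 as a mean of fractions, -1.44 CpG by CpG), chr3:59664001-59665000 (-5.03 and -0.03) and chr5:25215001-25216000 (6.52 over CpGs with 5 reads, 7.01 CpG by CpG) changed sign. Shifted windows give no value for named windows. No paired analysis was possible because each stage has 1 library, which also leaves no replicate to leave out. The 8-hpf library had the lowest coverage of the 4.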
